A study of Mus musculus with 10 samples.

Results

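Macrophage and monocyte genes were examined in the skin of mice that overexpress the kallikrein Klk6, a protease that cells release, and of control mice. The set holds 39 gene symbols taken by name from the 20611 listed in each library, and all 39 had enough counts to be tested. Transgenic animals (Klk6+) carried the Tetos-Klk6 transgene, a mouse Klk6 with a Myc/His tag, together with K5-tTA, a tetracycline transactivator driven by the bovine keratin 5 promoter in keratinocytes of the epidermis and in some other stratified squamous epithelia. The transactivator is active when doxycycline is absent, and these mice were bred on doxycycline because matings without it gave no transgenic pups. Control animals (WT) were littermates with neither transgene or with only 1 of the pair, which then is not expressed, and both lines were kept by backcrossing to C57BL/6. Each genotype had 5 mice with 1 library each, 3 males (replicates 1 to 3) and 2 females (replicates 4 and 5). For mice of both genotypes the sample records list a return to doxycycline chow at 10 to 11 weeks. They give 14 to 16 weeks as the age at collection of both. Whether the sequenced skin was taken before or after that return is unclear, since doxycycline switches the transgene off and Klk6 was high in every Klk6+ library, so the values cannot be assigned to a time on or off doxycycline.

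Macrophages of the skin come from cells seeded before birth, which maintain themselves in the tissue, and from blood monocytes that enter it and mature there. Both depend on the receptor CSF1R and its ligands CSF1 and interleukin 34. They clear dead cells, take up antibody-coated particles through Fc receptors, present antigen and release cytokines, and the genes they express shift with the signals they meet. In whole skin, fewer cells of a type, less RNA per cell and a larger share of RNA from other cells cannot be told apart. Several genes of the set are also expressed elsewhere, among them Itgam, Itgb2, Lyz2, Cd14, Plac8, Clec7a, Fcgr3, Fcgr4, Tyrobp and Fcer1g in neutrophils, Lyve1 in lymphatic endothelium, Gpnmb in melanocytes, and Csf1, Apoe and Nos2 in epithelial or stromal cells.

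Total counts ran from 26521019 to 41970272 per library. Levels are given as CPM, counts scaled to a common library size with trimmed-mean-of-M-values factors. Klk6 itself ranged over 12.7 to 26.5 CPM (WT) and 10293 to 14773 CPM (Klk6+), and transgene and endogenous transcripts share the symbol. On the first principal component the genotypes lay apart (78.3% of the variance). On the second (7.85%) Klk6+ 3 and Klk6+ 5 lay apart from the other Klk6+ libraries. A gene was called where the Benjamini-Hochberg adjusted p of edgeR's quasi-likelihood test, taken over 14861 genes with sex as a covariate, was below 0.05.

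Most macrophage and monocyte genes were lower in Klk6+ skin. Of the 39, 28 were called lower and 3 higher (Cd14, Chil3 and Nos2), while 8 were not called. The background was large, since 72.8% of all genes tested were called, 35.1% lower and 37.7% higher. The median log2 fold change of the members was -1.44, beside 0.04 over all genes tested. Of the members, 26 were called and at least 2-fold lower (20.5% of all genes) and 8 at least 4-fold lower (8.07%). There were 13 members for which every Klk6+ library lay below every WT library (27.0% of all genes) and 1, Chil3, for which every Klk6+ library lay above (30.1%). The other 25 overlapped.

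**Figure D1:**
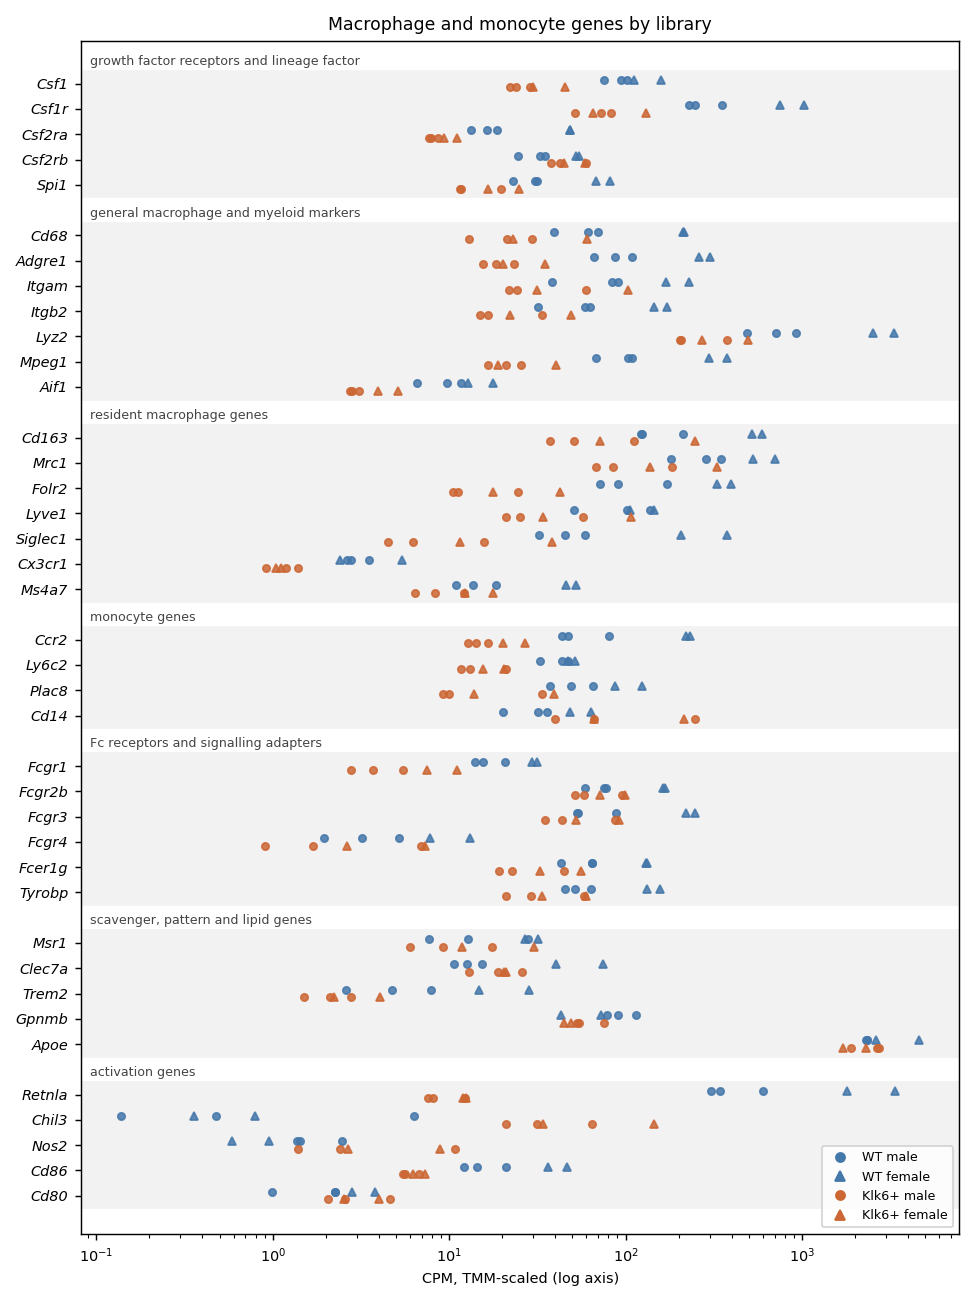
CPM of each of the 39 genes in each of the 10 libraries (log axis), grouped by role; blue is WT and orange Klk6+, circles are males and triangles females. Within WT both female libraries stood above all male libraries for 33 genes, and Retnla and Chil3 show the widest gaps between genotypes.

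**Figure D2:**
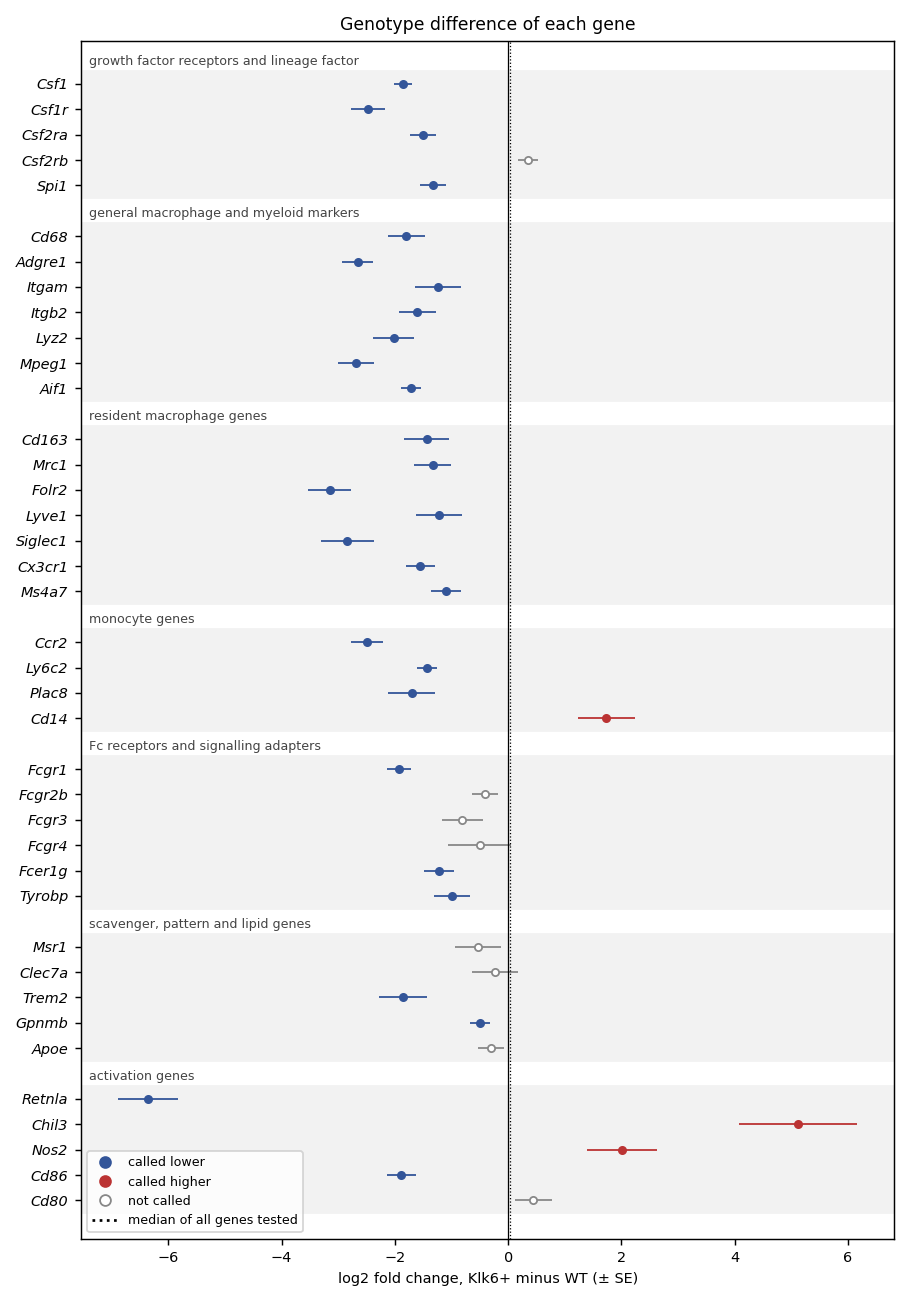
Log2 fold change of Klk6+ minus WT with its model standard error for each gene, from 5 libraries per genotype; filled points were called and open points were not, and the dotted line is the median of all 14861 genes. 28 genes lie to the left as called lower and 3 to the right as called higher.

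Genes of the growth-factor receptors and of the lineage factor fell in 4 of 5 cases (median log2 fold change -1.50). Of all genes tested, 35.1% were called lower. Csf1r, the receptor on which macrophage survival depends, was counted at 230.4, 249 and 353 CPM in WT males, 752 and 1021 CPM in WT females, 51.5, 72.3 and 82.9 CPM in Klk6+ males and 65.8 and 131 CPM in Klk6+ females. No Klk6+ library reached the lowest WT library, and the log2 fold change was -2.47 ± 0.30 (SE; adjusted p = 3.65e-05). Its exons overlap those of Hmgxb3 in the annotation, so some reads could belong to that gene. Exons of Csf2rb, Itgam, Folr2, Cx3cr1 and Fcgr2b also overlap those of another annotated gene.

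Csf1 encodes the ligand of that receptor. It stood at 75.2, 94.1 and 102 CPM in WT males, 112 and 158 CPM in WT females, 24.1, 22.2 and 28.6 CPM in Klk6+ males and 29.8 and 45.3 CPM in Klk6+ females. The groups did not overlap (-1.85 ± 0.15, adjusted p = 3.16e-06). Csf2ra, the ligand-binding chain of the receptor for granulocyte-macrophage colony-stimulating factor, had 13.4, 18.8 and 16.5 CPM in WT males and 48.4 CPM in both WT females, against 7.93, 8.68 and 7.69 CPM in Klk6+ males and 9.32 and 11.1 CPM in Klk6+ females. Again the groups were apart, with the WT females far above the WT males (-1.50 ± 0.23, adjusted p = 0.000177).

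Csf2rb, the signalling chain shared with the receptors for interleukins 3 and 5, was not called (0.34 ± 0.18, adjusted p = 0.106). Its levels were 24.5, 32.7 and 35.2 CPM in WT males, 52.4 and 54.5 CPM in WT females, 42.4, 37.7 and 59.8 CPM in Klk6+ males and 45.1 and 59.1 CPM in Klk6+ females, so the ranges overlapped. A near copy, Csf2rb2, was likewise not called (0.36 ± 0.16, adjusted p = 0.0605), and counting could split reads between the pair. Spi1, which encodes PU.1, the transcription factor of the myeloid lineage, fell (log2 fold change -1.33 ± 0.23, adjusted p = 0.000425), from 23.0 to 82.1 CPM over WT to 11.6 to 24.8 CPM over Klk6+.

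All 7 general macrophage and myeloid markers fell (median -1.79), where 35.1% of all genes tested were called lower. Mpeg1, which encodes the pore-forming perforin-2 of phagosomes, was at 68.3, 108 and 103 CPM in WT males, 298 and 375 CPM in WT females, 16.7, 20.9 and 25.5 CPM in Klk6+ males and 19.0 and 40.2 CPM in Klk6+ females. The highest Klk6+ library lay below the lowest WT library (-2.69 ± 0.32, adjusted p = 3.6e-05). Adgre1, the gene of the F4/80 antigen, gave 66.3, 86.9 and 109.5 CPM in WT males, 262 and 299.5 CPM in WT females, 15.6, 18.4 and 23.2 CPM in Klk6+ males and 20.2 and 35.1 CPM in Klk6+ females (-2.66 ± 0.27, adjusted p = 1.22e-05). These groups did not overlap either.

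Lyz2, the lysozyme of myeloid cells, had 490.1, 710.1 and 926 CPM in WT males and 2515 and 3313 CPM in WT females, and 206, 205 and 377 CPM in Klk6+ males and 271 and 497 CPM in Klk6+ females. Only Klk6+ 5 reached the lowest WT library (-2.02 ± 0.36, adjusted p = 0.000527). Its near copy Lyz1 fell by 2.58 ± 0.37 (adjusted p = 0.000131). The lysosomal marker Cd68 (-1.79), the actin-binding Aif1 (-1.72) and the integrin chains Itgb2 (-1.60) and Itgam (-1.24) made up the rest. Itgam, which with Itgb2 forms the complement receptor of macrophages and neutrophils, had the smallest change of the 7 (adjusted p = 0.0183). It was not called when WT 2 was left out (adjusted p = 0.0507) or when Klk6+ 1 was (adjusted p = 0.0501).

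Genes used to mark resident macrophages fell in all 7 cases (median -1.44), beside 35.1% of all genes tested. Folr2, a folate receptor of perivascular and other resident macrophages, had 72.0, 90.9 and 172 CPM in WT males, 332 and 395 CPM in WT females, 10.5, 11.2 and 24.5 CPM in Klk6+ males and 17.8 and 42.7 CPM in Klk6+ females. The groups were apart, and Folr2 had the largest fall of the set after Retnla (-3.15 ± 0.38, adjusted p = 3.6e-05). Siglec1, the sialic-acid receptor CD169, which interferon also induces, was at 32.3, 45.2 and 59.1 CPM in WT males, 374 and 206 CPM in WT females, 4.51, 6.24 and 15.7 CPM in Klk6+ males and 11.6 and 38.5 CPM in Klk6+ females. Only Klk6+ 5 entered the WT range (-2.84 ± 0.47, adjusted p = 0.000339).

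Cx3cr1, the fractalkine receptor, was low throughout, at 2.64, 2.79 and 3.50 CPM in WT males, 5.38 and 2.42 CPM in WT females, 1.39, 1.18 and 0.921 CPM in Klk6+ males and 1.11 and 1.04 CPM in Klk6+ females (-1.55 ± 0.25, adjusted p = 0.000301). All Klk6+ libraries were below all WT libraries. Because it is low, the fold shrank to -0.49 on the log2(FPKM + 1) scale, where it was still called (adjusted p = 0.00115). The scavenger receptors Cd163 (-1.44 ± 0.39) and Mrc1 (-1.33 ± 0.33), the hyaluronan receptor Lyve1 (-1.22 ± 0.41) and Ms4a7 (-1.10 ± 0.26) fell as well, with overlap between genotypes. In Klk6+ 5, Cd163 stood at 248 CPM, Mrc1 at 329 CPM and Lyve1 at 108 CPM, each above at least 1 WT library. Lyve1 was not called without WT 3 (adjusted p = 0.0606), Klk6+ 1 (0.0559) or Klk6+ 2 (0.0513). Of the 5 lymphatic-endothelium markers tested, 2 fell (Prox1 and Reln), beside 35.1% of all genes, and 3 were not called (median -0.44). Their summed level was 83.1 to 124 CPM over WT libraries and 48.1 to 100.3 CPM over Klk6+ libraries. Their part in the Lyve1 result was not tested.

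Among the 4 monocyte genes 3 fell and 1 rose (median -1.57), beside 35.1% and 37.7% of all genes tested. Ccr2, the chemokine receptor by which monocytes leave the marrow and enter tissue, had 43.9, 46.9 and 80.6 CPM in WT males, 221 and 231 CPM in WT females, 16.7, 12.7 and 14.3 CPM in Klk6+ males and 20.3 and 26.8 CPM in Klk6+ females. There was no overlap (-2.49 ± 0.28, adjusted p = 2.26e-05). Plac8, of monocytes and granulocytes, gave 37.3, 48.8 and 65.1 CPM in WT males, 124 and 87.7 CPM in WT females, 9.98, 9.23 and 33.6 CPM in Klk6+ males and 13.9 and 39.3 CPM in Klk6+ females (-1.71 ± 0.41, adjusted p = 0.00364). Klk6+ 5 alone overlapped WT.

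Ly6c2, a surface antigen of classical monocytes, fell by 1.44 ± 0.18 (adjusted p = 3.89e-05), from 32.8 to 51.7 CPM over WT to 11.7 to 21.1 CPM over Klk6+. Its near copy Ly6c1, which endothelium also expresses, fell by 1.58 ± 0.15 (adjusted p = 6.13e-06), so the values of the pair are uncertain for either member alone. Cd14, the co-receptor for bacterial lipopolysaccharide, went the other way. It was at 20.1, 35.7 and 31.9 CPM in WT males, 48.6 and 63.9 CPM in WT females, 66.3, 39.8 and 248 CPM in Klk6+ males and 66.0 and 213 CPM in Klk6+ females (1.73 ± 0.51, adjusted p = 0.0105). Klk6+ 3 and Klk6+ 5 were far above the rest. Without Klk6+ 3 the value was 1.05 (adjusted p = 0.0222), and without both libraries 0.58, no longer called (adjusted p = 0.0645).

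Fc receptors and the adapters that signal for them divided, with 3 of 6 called lower (35.1% of all genes) and none higher (median -0.90). Fcgr1, the high-affinity receptor for immunoglobulin G, was at 14.0, 20.8 and 15.6 CPM in WT males, 31.4 and 29.7 CPM in WT females, 2.78, 3.69 and 5.48 CPM in Klk6+ males and 7.47 and 11.1 CPM in Klk6+ females, without overlap (-1.93 ± 0.21, adjusted p = 1.72e-05). Fcer1g, the gamma chain used by activating Fc receptors, had 43.3, 64.9 and 64.3 CPM in WT males, 131 and 132 CPM in WT females, 22.6, 19.3 and 44.9 CPM in Klk6+ males and 32.9 and 55.8 CPM in Klk6+ females (-1.22 ± 0.26, adjusted p = 0.00173). Tyrobp, the adapter DAP12, showed 45.3, 51.4 and 64.1 CPM in WT males, 133 and 158 CPM in WT females, 29.1, 21.0 and 58.1 CPM in Klk6+ males and 33.6 and 59.8 CPM in Klk6+ females (-0.995 ± 0.32, adjusted p = 0.0162). For both adapters Klk6+ 3 and Klk6+ 5 reached into the WT male range.

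The other Fc receptors were not called. Fcgr2b, the inhibitory receptor, had 58.6, 75.4 and 77.8 CPM in WT males, 168 and 163 CPM in WT females, 58.3, 51.5 and 95.1 CPM in Klk6+ males and 71.8 and 98.7 CPM in Klk6+ females (-0.41 ± 0.22, adjusted p = 0.123). Males of the genotypes lay in the same range and WT females stood above all others. Fcgr3, a low-affinity activating receptor, gave 52.8, 53.5 and 87.9 CPM in WT males, 220.1 and 246 CPM in WT females, 43.4, 34.8 and 86.9 CPM in Klk6+ males and 52.7 and 91.7 CPM in Klk6+ females, with the same layout (-0.81 ± 0.36, adjusted p = 0.0639). Fcgr4, an activating receptor of monocytes and neutrophils, was low, at 1.95, 5.22 and 3.20 CPM in WT males, 13.1 and 7.76 CPM in WT females, 1.70, 0.906 and 6.98 CPM in Klk6+ males and 2.62 and 7.27 CPM in Klk6+ females (-0.50 ± 0.56, adjusted p = 0.433). Each of these 3 receptors was called lower once Klk6+ 3 was left out (Fcgr2b -0.65, adjusted p = 0.00594; Fcgr3 -1.18, adjusted p = 0.00369; Fcgr4 -1.26, adjusted p = 0.0211).

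Of 5 scavenger, pattern-recognition and lipid genes, 2 fell, beside 35.1% of all genes tested, and 3 were not called (median -0.50). Trem2, a lipid-sensing receptor that signals through Tyrobp, was at 2.60, 4.72 and 7.86 CPM in WT males, 14.8 and 28.3 CPM in WT females, 1.50, 2.13 and 2.79 CPM in Klk6+ males and 2.22 and 4.06 CPM in Klk6+ females (-1.86 ± 0.43, adjusted p = 0.0027). Klk6+ 3 and Klk6+ 5 reached above WT 1 alone. Gpnmb, a glycoprotein of lipid-loaded macrophages and of melanosomes, had 78.8, 115 and 90.6 CPM in WT males, 43.2 and 72.2 CPM in WT females, 54.3, 75.7 and 52.8 CPM in Klk6+ males and 44.6 and 49.3 CPM in Klk6+ females. It was called by a narrow margin (-0.50 ± 0.17, adjusted p = 0.0241), and the call was lost without any one of WT 2, WT 5, Klk6+ 1 or Klk6+ 3 or without sex in the model (adjusted p up to 0.0637). Of 6 melanocyte markers 4 rose and 1 fell in the same comparison, beside 37.7% and 35.1% of all genes tested, and 1 was not called. The summed level of these markers was 25.5 to 54.5 CPM over WT libraries and 50.1 to 350.1 CPM over Klk6+ libraries. Their part in the Gpnmb level was not tested.

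Msr1, the class A scavenger receptor, was counted at 7.67, 27.8 and 12.9 CPM in WT males, 26.8 and 32.0 CPM in WT females, 6.01, 9.20 and 17.6 CPM in Klk6+ males and 11.8 and 30.3 CPM in Klk6+ females (-0.53 ± 0.40, adjusted p = 0.255). Clec7a, the beta-glucan receptor dectin-1, had 10.7, 12.7 and 15.3 CPM in WT males, 40.5 and 74.6 CPM in WT females, 18.9, 12.996 and 25.9 CPM in Klk6+ males and 20.5 and 20.9 CPM in Klk6+ females (-0.23 ± 0.40, adjusted p = 0.614). For Clec7a the WT females were highest, while WT 1 and WT 2 lay below every Klk6+ library. Apoe, the lipid carrier apolipoprotein E, gave 2346, 2303 and 2337 CPM in WT males, 2619 and 4638 CPM in WT females, 2732, 2672 and 1889 CPM in Klk6+ males and 2304 and 1704 CPM in Klk6+ females (-0.30 ± 0.23, adjusted p = 0.251). WT 5 stood alone at the top. All 3 ranges overlapped between genotypes.

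Of the 5 activation genes, 2 were called higher and 2 lower, beside 37.7% and 35.1% of all genes tested, and 1 was not called. Retnla, a secreted resistin-like protein that interleukins 4 and 13 induce in macrophages, was at 305, 342 and 602 CPM in WT males and 1807 and 3357 CPM in WT females. In Klk6+ it was at 12.4, 7.60 and 8.08 CPM in males and 12.5 and 11.9 CPM in females. The lowest WT library was far above the highest Klk6+ library (-6.36 ± 0.53, adjusted p = 3.35e-06). Retnlg, a near copy of Retnla, went the other way (5.61 ± 1.01, adjusted p = 0.000583). The highest WT library had 3.55 CPM of Retnlg, and the lowest Klk6+ library had 10.2 CPM. Adipocytes also express Retnla, and all 6 adipocyte markers fell (median -1.55), and their summed level was 1213 to 1721 CPM over WT libraries and 480.0 to 747 CPM over Klk6+ libraries. Their part in the Retnla result was not tested.

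Chil3, the chitinase-like protein Ym1 of alternatively activated macrophages and of neutrophils, had 0.138, 6.31 and 0.478 CPM in WT males and 0.790 and 0.358 CPM in WT females. In Klk6+ it had 31.6, 20.9 and 64.6 CPM in males and 33.9 and 145 CPM in females, above every WT library (5.12 ± 1.04, adjusted p = 0.00128). WT 2 held most of the WT counts, and without it the log2 fold change was 7.17. The near copy Chil4 rose by 4.80 ± 0.94 (adjusted p = 0.000985), at lower levels. Nos2, the inducible nitric oxide synthase of classically activated macrophages and of keratinocytes, was at 2.46, 1.37 and 1.44 CPM in WT males, 0.585 and 0.956 CPM in WT females, 2.41, 1.39 and 10.8 CPM in Klk6+ males and 2.69 and 8.83 CPM in Klk6+ females (2.01 ± 0.61, adjusted p = 0.0132). Klk6+ 3 and Klk6+ 5 were the high libraries, and Nos2 was not called without Klk6+ 3 (1.37, adjusted p = 0.0902) or without both (0.68, adjusted p = 0.169).

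The T-cell costimulators of the set differed. Cd86 fell by 1.89 ± 0.26 (adjusted p = 8.1e-05), from 12.1 to 46.5 CPM over WT to 5.51 to 7.27 CPM over Klk6+, without overlap. Cd80 was not called (0.45 ± 0.33, adjusted p = 0.238), with 0.988, 2.26 and 2.24 CPM in WT males, 2.81 and 3.79 CPM in WT females, 2.58, 2.06 and 4.61 CPM in Klk6+ males and 2.53 and 4.02 CPM in Klk6+ females. Only Cd80 overlapped between genotypes.

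Upstream sequence is shown for the activation genes with the widest gaps between genotypes, Retnla and Chil3, and for 2 myeloid genes whose sequence holds a PU.1 match, Ly6c2 and Fcgr4. RefSeq sequence (GRCm38.p6) was held for 27 of the 39 genes. The first listed window of each, 250 bases before the start, was searched on both strands for GAGGAAGT (PU.1), for TTC and GAA with any 4 bases between (a spacing that STAT6 binds, the same on both strands) and for GAAA and GAAA with any 2 bases between (an interferon response element). Capitals mark every match, and in the 4 sequences shown, bases that the GENCODE M21 annotation places inside the gene were left off after the search. The windows of Fcgr2b, Fcgr3, Cx3cr1 and Cd80 lie inside the annotated gene, downstream of its first start, and are counted among the 27 all the same.
Retnla, chr16:48842359-48842550, plus strand: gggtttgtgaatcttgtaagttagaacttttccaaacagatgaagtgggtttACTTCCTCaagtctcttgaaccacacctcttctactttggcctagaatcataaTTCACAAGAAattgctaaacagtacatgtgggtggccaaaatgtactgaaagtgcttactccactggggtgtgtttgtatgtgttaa
Chil3, chr3:106167565-106167814, minus strand: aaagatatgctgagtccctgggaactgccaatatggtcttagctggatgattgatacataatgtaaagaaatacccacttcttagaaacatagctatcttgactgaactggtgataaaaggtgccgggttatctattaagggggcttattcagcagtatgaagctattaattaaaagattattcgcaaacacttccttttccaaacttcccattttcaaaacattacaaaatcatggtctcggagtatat
Ly6c2, chr15:75111972-75112221, minus strand: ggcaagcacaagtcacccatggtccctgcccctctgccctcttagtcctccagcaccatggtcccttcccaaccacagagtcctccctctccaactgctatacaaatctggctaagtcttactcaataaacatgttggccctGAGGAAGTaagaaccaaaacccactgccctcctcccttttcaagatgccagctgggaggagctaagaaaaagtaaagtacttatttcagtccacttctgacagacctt
Fcgr4, chr1:171018676-171018919, plus strand: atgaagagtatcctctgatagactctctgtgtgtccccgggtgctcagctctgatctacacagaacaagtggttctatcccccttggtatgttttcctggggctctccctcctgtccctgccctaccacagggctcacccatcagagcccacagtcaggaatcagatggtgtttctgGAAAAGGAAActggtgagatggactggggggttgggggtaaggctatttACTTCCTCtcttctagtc
The Retnla sequence holds 1 PU.1 match and 1 STAT6-spaced match, and the Chil3 sequence holds none of the 3 motifs. Ly6c2 holds 1 PU.1 match, and Fcgr4 holds 1 PU.1 match and 1 interferon response element. Over the set, the PU.1 letters occurred in 3 of 27 sequences (Fcgr4, Ly6c2 and Retnla), beside 2.44% of the 27025 promoters in the table. The STAT6 spacing occurred in 3 of 27 (Clec7a, Retnla and Ms4a7), beside 5.86% of promoters, and the interferon element in 2 of 27 (Fcgr4 and Aif1), beside 3.04%. A match is a description of letters and not a shown binding site.

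On the authors' FPKM, a scale per transcript length that allows levels of different genes to be compared, Retnla was the most abundant of the 39 in WT (2769 ± 2833, SD, n = 5), followed by Apoe (2357 ± 843) and Lyz2 (1600.2 ± 1266). In Klk6+ the order was Apoe (1883 ± 369.9), Lyz2 (316 ± 131) and Tyrobp (95.9 ± 42.2). The spread over WT libraries was as large as the gaps between the 3 leading genes there. Retnla moved from place 1 to place 13 and Chil3 from place 37 to place 8. Cd14 moved from place 22 (23.5 ± 9.92 FPKM) to place 4 (75.0 ± 56.6 FPKM). Nos2 and Cx3cr1 held the last 2 places in Klk6+ with 1.19 ± 0.965 and 0.275 ± 0.0432 FPKM.

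Sex went along with the level of these genes in WT skin. Both WT females stood above all WT males for 33 of the 39 genes, where 19.2% of all genes tested showed that order. In the model with 4 genotype-by-sex means, 16 members were called higher in WT females than in WT males and none lower, beside 3.81% and 1.32% of all genes. This comparison was added after the values were seen. Retnla (2.63 ± 0.36, adjusted p = 0.00939), Siglec1 (2.67 ± 0.60, adjusted p = 0.0386), Clec7a (2.16 ± 0.32, adjusted p = 0.011), Lyz2 (2.04 ± 0.37, adjusted p = 0.0197) and Ccr2 (1.98 ± 0.25, adjusted p = 0.0085) were among them. With only 2 WT females, it rested on few libraries. It became 3 without WT 1, 3 without WT 2, 3 without WT 4 and 1 without WT 5, and without both Klk6+ 3 and Klk6+ 5 it became 26. The number called higher over all genes moved the same way, from 566 to 87, 126, 24 and 11 in the first 4 of these settings and to 740 in the last. Markers of other cell types also differed by sex in WT. The 6 fibroblast markers summed to 40764, 40369 and 21848 CPM in the male libraries and to 11489 and 11876 CPM in the female ones, with 2 called lower in females. The 4 keratinocyte markers summed to 13392, 12220 and 9046 CPM against 7029 and 4509 CPM, with 1 called lower. Their part in the sex difference was not tested. Among Klk6+ libraries no member was called between the sexes by edgeR (5 of all genes were, 0.0336%), with a median log2 difference of 0.55 for females minus males, beside 1.40 in WT.

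Within males 25 members were called lower and 3 higher (31.0% and 33.4% of all genes), and within females 29 were lower and 2 higher (28.4% and 31.2%). The male count of 28 fell to 18 without WT 2, while over all genes 4342 were called lower and 4619 higher in place of 4611 and 4962. The median log2 fold change was -1.23 in males and -1.72 in females, and 32 of 39 members had the lower value in females, as did 45.0% of all genes. The sexes share no libraries in these contrasts, but members are not independent of each other. The test of the difference itself called 0 members and 0.0% of the 14861 genes by edgeR. At an unadjusted p below 0.05 it found 14 members and 9.49% of all genes, and DESeq2 called 3 members, Retnla, Csf2ra and Clec7a (adjusted p = 0.00361, 0.000812 and 0.00629). Clec7a was at 0.58 ± 0.29 in males (adjusted p = 0.101) and at -1.47 ± 0.35 in females (adjusted p = 0.00601). For Csf2ra the values were -1.001 ± 0.14 and -2.24 ± 0.18, and for Retnla -5.47 ± 0.39 and -7.72 ± 0.53. The plot of male against female differences shows most points below the diagonal.

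**Figure D3:**
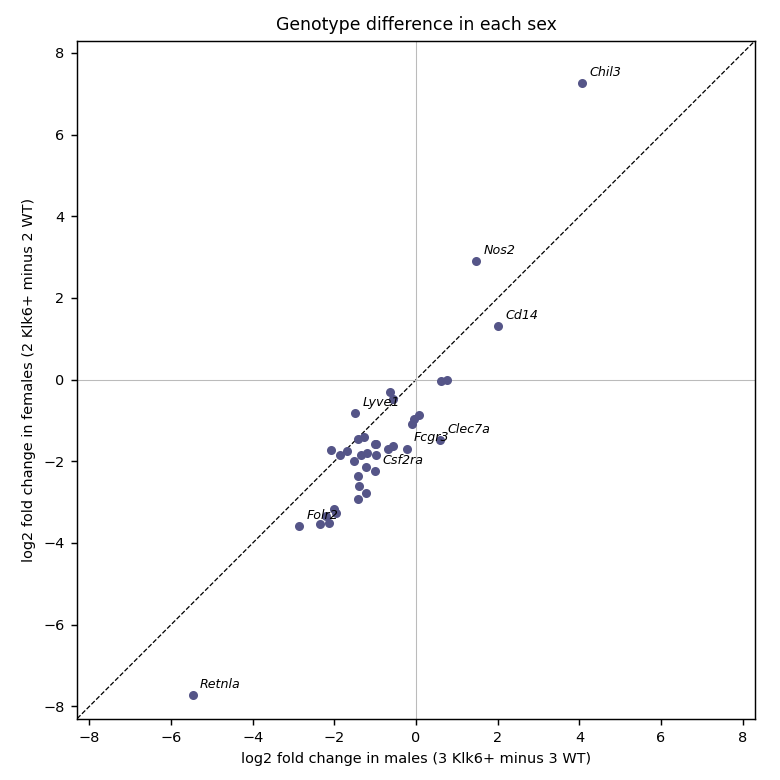
Log2 fold change of Klk6+ minus WT in females (vertical axis, 2 against 2 libraries) against that in males (horizontal axis, 3 against 3) for the 39 genes, with the line of equal change dashed. 32 points lie below the line, Retnla is at -5.47 and -7.72, and Chil3 at 4.06 and 7.27.

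Klk6+ libraries differed among themselves. Klk6+ 5 was the highest Klk6+ library for 29 of the 39 members, and Klk6+ 3 and Klk6+ 5 were together the top pair for 28, an order that 18.3% of all genes tested showed. Relative to the WT mean, the median member stood at -1.80, -1.96 and -1.42 in Klk6+ 1, 2 and 4 (log2 of CPM with 0.5 added) and at -1.04 and -0.67 in Klk6+ 3 and 5. In WT the same medians ran from -0.99 in WT 1 to 0.89 in WT 5. Neutrophil markers moved with this order. Leaving aside S100a8 and S100a9, which keratinocytes also make, their summed level was 404 and 343 CPM in Klk6+ 3 and 5, 75.1 to 138 CPM in the other Klk6+ libraries and 35.7 to 59.3 CPM in WT. With those 2 genes the order was different, at 9519, 6025, 10103, 7244 and 7704 CPM in Klk6+ 1 to 5. Of the 12 neutrophil markers tested 11 rose (37.7% of all genes), and Ly6g, a defining marker, is not among the symbols analysed here. Mpo and Elane stayed at or below 4.04 CPM in every library. How far neutrophil RNA enters the values of Cd14, Chil3, Nos2, Itgam and the Fc receptors was not tested. With Klk6+ 3 and Klk6+ 5 both left out, 32 members were called lower and 1 higher, Chil3. Of all 15158 genes tested in that setting, 5290 were called lower and 5269 higher.

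**Figure D4:**
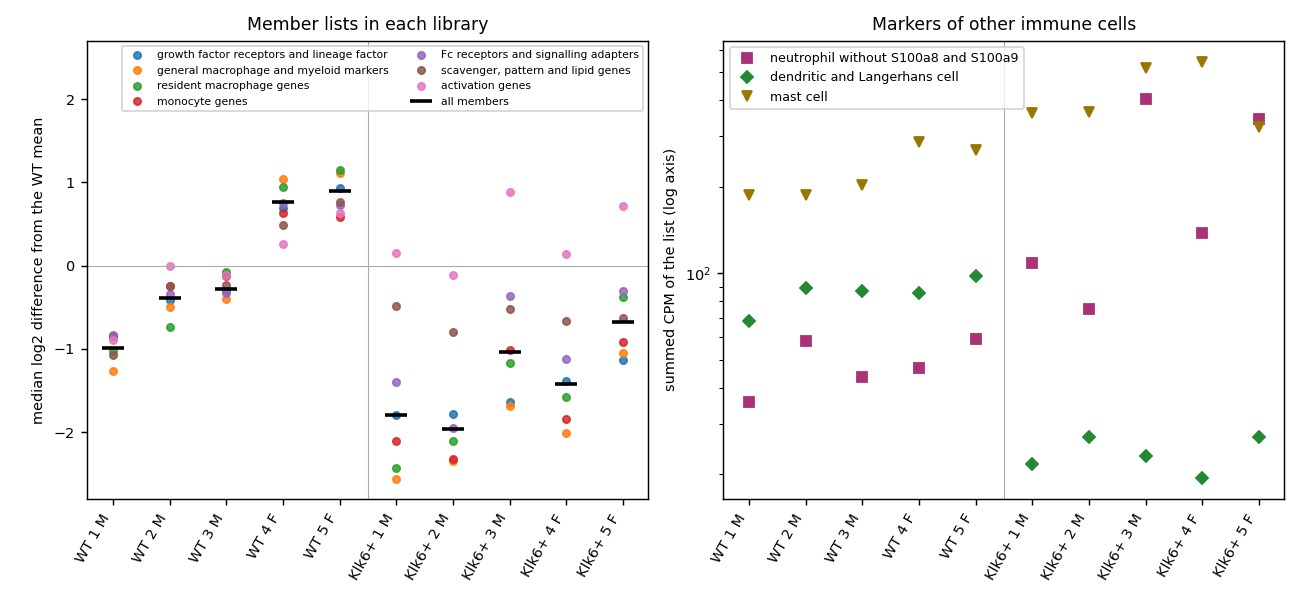
Left: median log2 difference from the WT mean for each role list and for all 39 genes (black bars) in each library, M for males and F for females. Right: summed CPM (log axis) of marker lists for neutrophils, dendritic and Langerhans cells and mast cells; the neutrophil sum, taken without S100a8 and S100a9, is highest in Klk6+ 3 and 5 (404 and 343 CPM), which are also the highest Klk6+ libraries for most macrophage genes.

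Other genes of macrophages and monocytes were taken from lists composed from general knowledge, though with earlier results of these data known. The lists held 67 genes, of which 65 were tested. Here 36 were called lower and 16 higher (35.1% and 37.7% of all genes tested), with a median of -1.02. Resident-macrophage genes outside the set fell in 15 of 17 cases (median -1.76). They included Gas6 (-1.76 ± 0.11), a bridge between dying cells and phagocytes, its receptor Mertk (-1.76 ± 0.14) and the lectin gene Cd209f (-3.26 ± 0.30). In WT the female mean of Gas6 was 1.18-fold the male mean, beside 1.73-fold for Mertk and 3.00-fold for Cd209f. Which cells made Gas6 was not tested. The complement subunit gene C1qa, named after its value was seen, fell by 2.06 ± 0.29. Vsig4, a complement receptor of resident macrophages, was not called (0.95 ± 0.45, adjusted p = 0.0802).

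Genes of the phagocyte machinery fell in 10 of 14 cases (median -1.21), beside 35.1% of all genes tested. Among them were Cybb (-3.07 ± 0.32), the catalytic subunit of the phagocyte oxidase, the inhibitory receptor Sirpa (-1.18 ± 0.15) and Fermt3 (-1.49 ± 0.22), which activates integrins. Csf3r, the receptor of the neutrophil growth factor, rose (1.51 ± 0.38, adjusted p = 0.00438). Of 9 further monocyte genes tested, 5 fell and 2 rose (median -0.86), beside 35.1% and 37.7% of all genes. Fn1 (-3.43 ± 0.21), which fibroblasts also make, Ace (-2.41 ± 0.31) and the transcription factor Irf8 (-1.05 ± 0.21) fell, while Chil1 (7.97 ± 0.25), a chitinase-like gene, rose.

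Of 10 growth-factor ligands and monocyte attractants, 3 were called higher and 2 lower, beside 37.7% and 35.1% of all genes tested. The other 5 were not called. Il34, the second ligand of CSF1R and a product of keratinocytes, fell by 1.32 ± 0.15 (adjusted p = 1.86e-05), from 36.7 to 64.0 CPM over WT to 17.1 to 20.4 CPM over Klk6+. Both ligand genes of the receptor were thus lower, along with the receptor. Csf2, the ligand of Csf2ra, rose (3.42 ± 0.78, adjusted p = 0.00259) from at most 0.239 CPM to between 0.298 and 2.47 CPM. Ccl3 (5.67 ± 0.54) and Ccl4 (6.03 ± 0.64), attractants of monocytes and neutrophils, rose, and Ccl5, a T-cell attractant, fell (-2.61 ± 0.46). For Ccl2, the main ligand of CCR2, the difference was -0.34 ± 0.44 (adjusted p = 0.505).

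Effector genes stood apart from the identity markers, with 9 of 15 called higher and 4 lower (median 0.74). Of all genes tested, 37.7% were called higher and 35.1% lower. Il1b, the gene of interleukin 1 beta, rose from 1.34 to 3.65 CPM over WT to 54.9 to 283 CPM over Klk6+ (6.23 ± 0.52), and was highest in Klk6+ 3. Fabp5 (4.87 ± 0.27), a fatty-acid carrier of keratinocytes and macrophages, and Ptgs2 (3.91 ± 0.35), the inducible cyclooxygenase, rose as well. Lpl (-1.05 ± 0.22), Cd36 (-0.61 ± 0.15) and Il10 (-1.62 ± 0.43) fell, the first a lipase that adipocytes and muscle also make. Whole skin does not show which cells made any of these transcripts.

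Dendritic and Langerhans cell markers moved with the macrophage genes, 7 of 8 called lower with a median of -1.68 and a summed level of 68.2 to 98.2 CPM over WT libraries and 19.4 to 27.1 CPM over Klk6+ libraries. The sexes of WT did not separate on that sum. Mast-cell markers rose in 7 of 8 cases (median 0.92), as shown in the plot of gene lists. Beside these counts and those that follow, 35.1% of all genes tested were called lower and 37.7% higher. Markers of T cells fell in 5 of 7 cases (median -1.01), and skeletal-muscle genes fell in all 16 (median -3.32). All 6 fibroblast markers fell (median -1.46), from a sum of 11489 to 40764 CPM over WT to 4445 to 9293 CPM over Klk6+. Keratinocyte markers rose in 3 of 4 cases and fell in 1 (median 1.94), and sebaceous-gland markers rose in 5 of 6 (median 1.36). The fibroblast median and the adipocyte median (-1.55) lay near that of the 39 members (-1.44). How far a changed share of these other cell types enters the member values was not tested. Nor was their part tested for Fn1, Nos2, Il34 and Fabp5, which fibroblasts or keratinocytes also express. With the muscle genes and Klk6 taken out of the counts before scaling, 28 members were again called lower and 3 higher. Of the 14820 genes then tested, 5427 were called lower and 5350 higher.

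**Figure D5:**
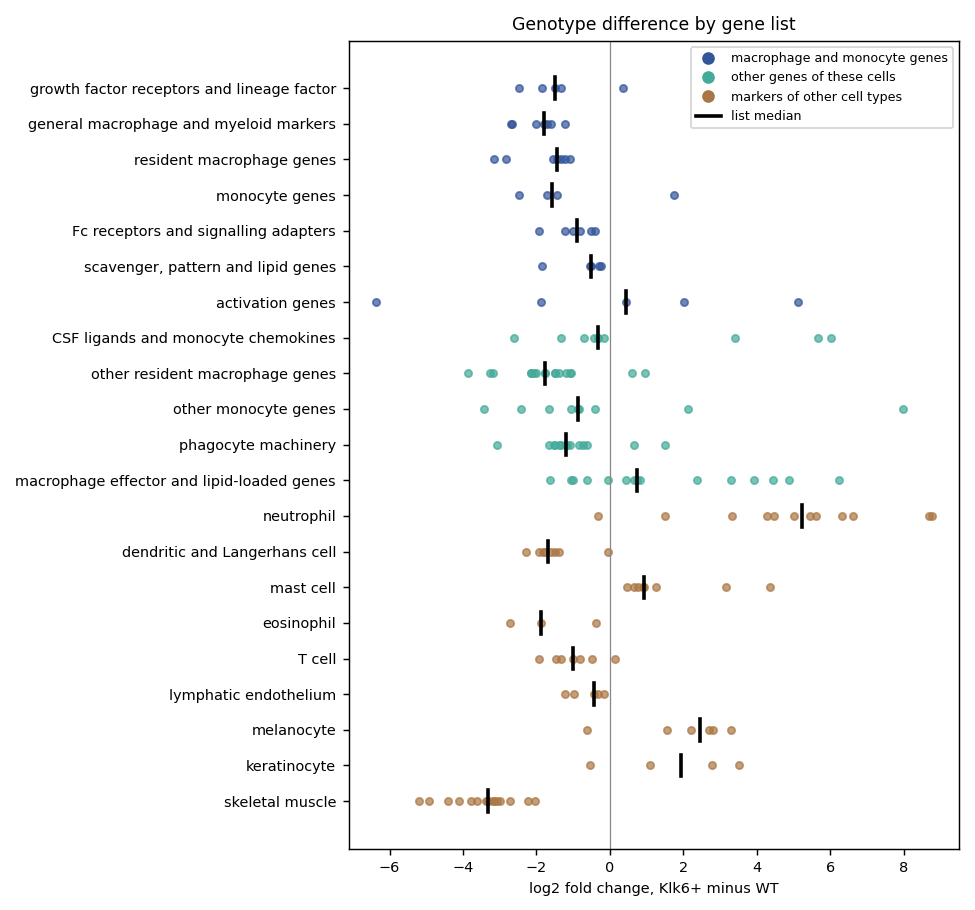
Log2 fold change of Klk6+ minus WT for every tested gene of each list, with the list median as a black bar; blue are the macrophage and monocyte genes by role, green other genes of these cells and brown markers of other cell types. The medians are -1.79 for general macrophage markers, -1.44 for resident genes, -1.57 for monocyte genes, 0.45 for activation genes and 5.23 for neutrophil markers, S100a8 and S100a9 included.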

How the data were processed

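Gene expression was measured by mRNA sequencing of whole skin from 10 mice, with polyA selection and 50-cycle single-end reads, per the labels' protocols. The authors deposited 1 table per mouse with whole-number read counts per gene symbol, not normalized, and an FPKM value scaled by the authors. The submitters' processing notes list Cufflinks 2.2.1, HTSeq, SAMtools and TopHat2, and as builds mm10 and GRCm38, without saying what each did. Not given in the sources used here are annotation, multi-mapping and strand options, so near copies and overlapping genes are uncertain.

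Tests used edgeR 4.0.16 under R 4.3.3 on the raw counts (filterByExpr on genotype, minimum count 10; trimmed mean of M values; quasi-likelihood test; biological coefficient of variation 0.244). P-values were adjusted by Benjamini and Hochberg's method across 14861 genes. The SE is the fold change divided by the root of the F statistic. In these libraries 1 count was worth 0.0230 to 0.0373 CPM. Genotype within sex, the interaction and sex within genotype came from 4 genotype-by-sex means sharing 1 spread. Alternatives used DESeq2 1.42.0, limma 3.58.1 on FPKM, other scalings and filters, and libraries left out. On simulated data with 200 changed genes, the genotype test recovered 71% of 2-fold and 100% of 4-fold changes over 14819 genes. The interaction test recovered 10% and 70% over 14809. The simulation gave every gene the same spread and changed far fewer genes than the 72.8% called by genotype here. These rates therefore need not hold for the genes of this set.

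The members and lists were chosen with earlier results of these data known. Described one by one were, per role, the 3 called members of largest change with at least 1 CPM, all members not called and all called higher. Companion genes were named up to 3 per list and direction by smallest p, and C1qa, Ccl2 and Vsig4 were added after their values were seen. Some genes that this rule names are not reported here. Gene positions are from GENCODE M21 on GRCm38.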

Additional observations from a re-analysis of the deposited data

Results flagged for a closer look

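Chil3 in WT 2 (6.31 CPM) stood apart from the other WT libraries, the next highest of which was 0.790 CPM, so that the gap took 0.894 of the WT range. Apoe in WT 5 (4638 CPM, the next highest WT library at 2619 CPM) had a gap of 0.865 of the range. Gaps past Dixon's critical value were looked for among 78 groups of 5 libraries, 39 genes in 2 genotypes. Chance flags about 1 in 20 such groups, and 2 were found.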

How the results depend on the processing

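Under 20 other settings, 29 of 39 members kept their direction and side of the threshold in all of them. Called members that lost the call somewhere were Itgam, Lyve1, Cd14, Nos2 and Gpnmb. Fcgr2b, Fcgr3, Fcgr4 and Msr1 gained one, Fcgr3 also with DESeq2, upper-quartile factors, the stricter filter and both FPKM fits. Clec7a, not called, changed sign without WT 5, where its log2 fold change was 0.061, with leave-one-out values from -0.51 to 0.06. Leaving out each library in turn gave 25 to 30 members called lower and 2 to 3 higher. Over all genes it gave 4974 to 5488 lower and 4981 to 5507 higher. Within males it gave 18 to 29 members called, beside 4142 to 5026 of all genes lower and 4424 to 4781 higher. Leaving out a female leaves 1 female in its group, so no counts are given here within females, for the interaction or between WT sexes. Without both Klk6+ 3 and Klk6+ 5, a setting chosen after seeing the data, 1 member was called higher in place of 3 and 26 differed by sex in WT in place of 16. DESeq2 called 3 members for the interaction in place of 0, and, of all genes, 82 higher and 179 lower where edgeR called 0. The cause was not tested. No paired analysis was possible because replicate numbers were given in accession order and pair no animals. Depth limits Cx3cr1, Nos2, Cd80 and WT Chil3, the lowest genes here.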
